A study of Mus musculus with 12 samples.

Results

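The genes of the postsynaptic scaffold and of synaptic adhesion, 29 in number, were followed in the hippocampus of mice that lack a microRNA cluster in part of their brain cells. They were chosen by function and taken by symbol from the deposited table: 20 scaffold or signalling genes (Dlg1 to Dlg4, Dlgap1 to Dlgap4, Shank1 to Shank3, Homer1 to Homer3, Camk2a, Camk2b, Gphn, Prr7, Iqsec1 and Iqsec2) and 9 adhesion genes (Nlgn1 to Nlgn3, Nrxn2, Nrxn3 and Lrrtm1 to Lrrtm4). All 29 were among the 33250 gene symbols of the table, and all 29 passed the filter on low counts that left 19325 genes for the test. The rule uses no measured value.

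The study compared bulk hippocampus of 6 wild-type (WT) and 6 conditional knockout (cKO) male mice by sequencing of polyA RNA, 1 library per animal. In the cKO animals, Cre recombinase deletes the Mir379-Mir410 cluster of microRNAs in cells positive for Emx1, and the stated question is whether its loss in glutamatergic neurons of the hippocampus alters gene expression. Emx1 marks the lineage of the dorsal forebrain, which gives rise to glutamatergic neurons and also to many astrocytes and oligodendrocytes. Interneurons, microglia and vessel cells come from other lineages and would keep the cluster, so the tissue holds both kinds of cells. Whether the WT animals carried a floxed allele or Cre, the strain, the age and the construct that drives Cre are nowhere stated in the sources used here. In bulk samples, fewer cells of a type and less RNA per cell cannot be told apart.

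At an excitatory synapse, proteins of the DLG, SAPAP (Dlgap), Shank and Homer families stack into layers that link glutamate receptors at the membrane to signalling enzymes and actin beneath it, with the kinase CaMKII held in large amounts in the same density. Neurexins on the presynaptic side bind neuroligins and LRRTM proteins on the postsynaptic side, and gephyrin plays the scaffold's part at inhibitory synapses. MicroRNAs of this cluster are abundant in neurons, and several have been studied as repressors of dendritic and synaptic mRNAs; they pair through a short seed at their 5′ end with sites in 3′ UTRs, usually with modest effects on the level of each mRNA.

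RefSeq (GRCm38.p6) lists 69 mature microRNAs within the cluster, which spans chr12:109709060-109743795, and their seeds (bases 2 to 8) form 63 distinct sequences. The longest annotated 3′ UTR of each of the 29 genes (GENCODE transcripts, GRCm38) held at least 1 exact match to the complement of such a seed, 375 matches in all. That is common to most genes: 91.1% of the 15315 tested genes with a 3′ UTR of at least 50 bases held 1 or more. Prr7 and Dlgap3 have been described as targets of the cluster, and their matches are shown because a reader would look to these genes first. The microRNAs that have a seed match in these UTRs are printed 5′ to 3′ with the seed in capitals.
mmu-miR-495-3p: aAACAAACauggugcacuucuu
mmu-miR-379-3p: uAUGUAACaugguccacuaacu
mmu-miR-411-3p: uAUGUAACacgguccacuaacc
mmu-miR-329-3p: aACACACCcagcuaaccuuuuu
mmu-miR-377-3p: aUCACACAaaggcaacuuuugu
mmu-miR-666-5p: aGCGGGCAcagcugugagagcc
mmu-miR-134-3p: cUGUGGGCcaccuagucacc
mmu-miR-299a-3p: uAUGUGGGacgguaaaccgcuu
In this set miR-379-3p and miR-411-3p share 1 seed, so they match the same site. The sites follow on the strand of the mRNA, with the bases that pair with the seed in capitals and 9 bases on either side.
Prr7 3′ UTR, miR-495-3p, chr13:55473099-55473123 (+ strand): tcttaccctGTTTGTTacattttga
Prr7 3′ UTR, miR-379-3p and miR-411-3p, chr13:55473103-55473127 (+ strand): accctgtttGTTACATtttgaggat
Prr7 3′ UTR, miR-329-3p, chr13:55473125-55473149 (+ strand): gataataaaGGTGTGTgatctgctt
Prr7 3′ UTR, miR-377-3p, chr13:55473127-55473151 (+ strand): taataaaggTGTGTGAtctgctttg
Dlgap3 3′ UTR, miR-666-5p, chr4:127236489-127236513 (+ strand): cccggcttcTGCCCGCcgcgctttc
Dlgap3 3′ UTR, miR-134-3p, chr4:127236838-127236862 (+ strand): cagccctctGCCCACAgggcccagg
Dlgap3 3′ UTR, miR-299a-3p, chr4:127236907-127236931 (+ strand): ctcccctttCCCACATctggggagg
Dlgap3 3′ UTR, miR-299a-3p, chr4:127236961-127236985 (+ strand): gtggctgttCCCACATccctttgag

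The 4 matches in Prr7 lay within the last part of a 3′ UTR of only 164 bases, between positions 118 and 152 after the stop codon, and each overlapped a neighbour. This gave 24.4 matches per kilobase, a density reached by 11 of the 15315 UTRs (0.0718%), Prr7 included. Among the 1030 UTRs of 100 to 250 bases, 11 (1.07%) held at least 4 matches. Dlgap3 held 4 matches in 654 bases, 6.12 per kilobase, and 14.7% of UTRs were as dense. A match is a run of letters and not a measured binding site.

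**Figure D1:**
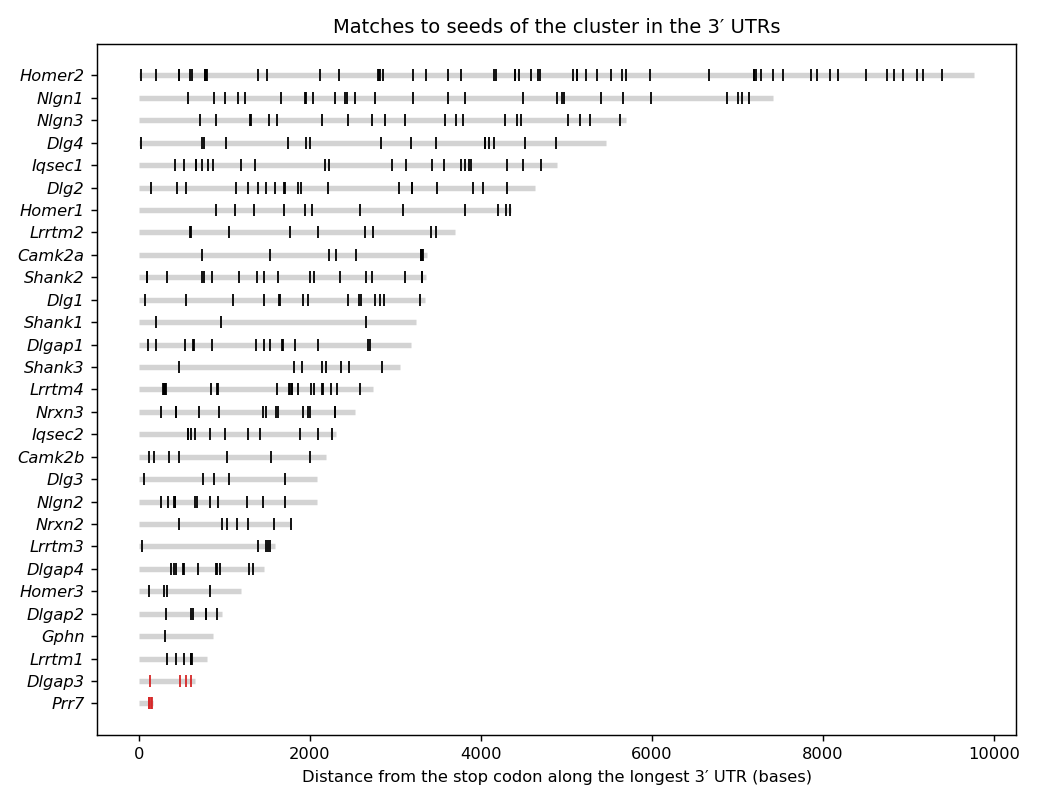
Positions of the matches to seeds of the cluster (ticks) along the longest 3′ UTR of each gene (grey line), in bases from the stop codon, with Prr7 and Dlgap3 in red. Homer2 has the longest UTR (9772 bases) and the most matches (57), Gphn has 1 match, and the 4 matches of Prr7 sit together at the end of a UTR of 164 bases.

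None of the 29 genes changed between genotypes by the edgeR test at an adjusted p under 0.05, where 2 of the 19325 genes tested (0.0103%) did. DESeq2 and limma-voom also called 0 of the 29, and of all genes tested DESeq2 called 76 and limma-voom 0. The smallest edgeR adjusted p among the 29 was 0.353, for Lrrtm2. The log2 fold change of cKO against WT lay between -0.18 (Homer1) and 0.043 (Shank1), and 22 of the 29 values were below 0, with a median of -0.027. That number ran from 19 (without WT 3) to 27 (without WT 1) when each animal was left out. Over all genes tested, 46.6% of the values were below 0 and the median was 0.0072. At an unadjusted p under 0.05, 6 of the 29 genes were lower in cKO (Lrrtm2, Homer2, Nrxn3, Homer1, Iqsec2 and Dlgap2) and 0 were higher, against 1225 genes lower (6.34%) and 618 higher (3.2%) of all tested. In none of the 29 did the 2 genotypes separate without overlap, which 78 of all genes tested (0.404%) did.

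In 27 of the 29 genes the 95% interval of the genotype difference lay within 20% of the WT level in either direction. The exceptions were Homer1, with a lower end of -20.6%, and Lrrtm3, with a lower end of -23.8%. The number of genes lower at an unadjusted p under 0.05 turned on single animals: it was 2 without WT 5 (Homer2 and Lrrtm2), 4 without WT 2, 4 without cKO 6, 7 without cKO 1 (Nlgn1 added) and 9 without WT 1. The share of all genes tested that were lower at that p was 4.23% without WT 5, 5.82% without WT 2, 5.61% without cKO 6, 8.96% without cKO 1 and 9.4% without WT 1. When WT 2, WT 3 and cKO 4 were left out together, the number was 2 (Homer1 and Lrrtm2), beside 5.09% of all genes.

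**Figure D2:**
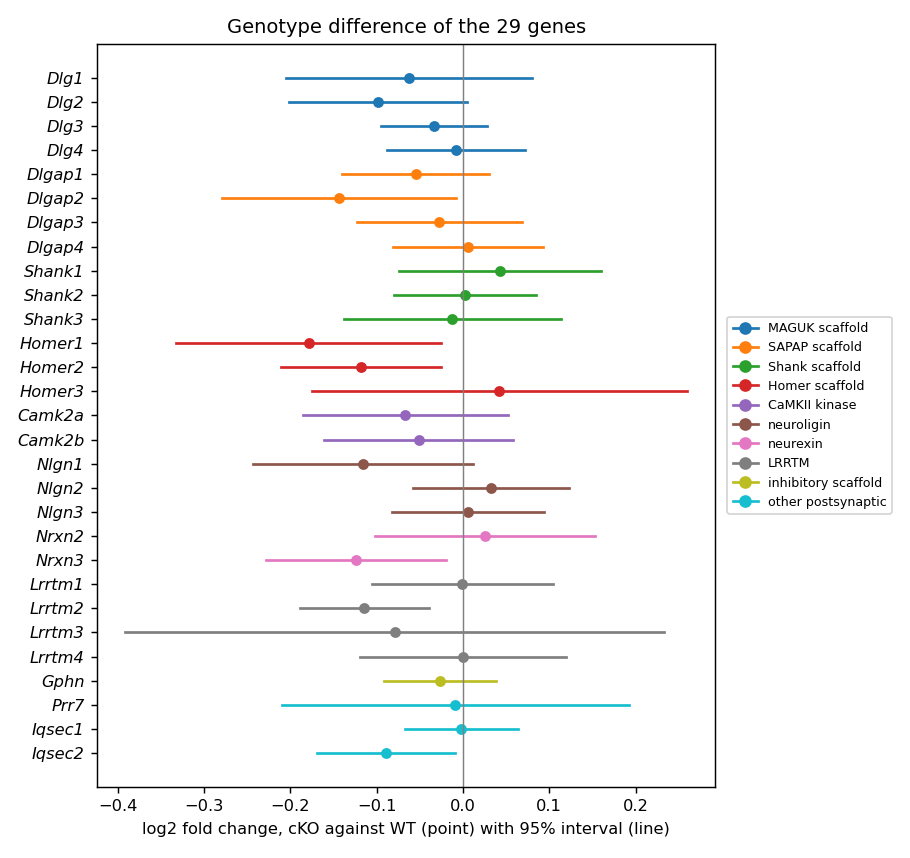
Log2 fold change of cKO against WT (points) with its 95% interval (lines) for each of the 29 genes, coloured by family. The points run from -0.18 to 0.043, 22 of 29 lie left of 0, and the intervals of Lrrtm2, Homer1, Homer2, Nrxn3, Iqsec2 and Dlgap2 do not reach 0 before adjustment for the number of genes tested.

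Library totals ranged from 42360624 to 51095816 counts, and Lrrtm3 and Prr7, the members with the fewest reads, had at least 627 and 617 counts in every library. Values are given as CPM (a gene's count scaled to a common library total, with TMM scaling). The spread between animals was small: the coefficient of variation within a genotype ran from 2.26% (Dlg3 in cKO) to 22.5% (Lrrtm3 in cKO), with a median of 6.61% in WT and 6.25% in cKO. Marker genes of neurons summed to between 6530 and 7372 CPM in WT and between 6429 and 7275 CPM in cKO. Mirg, a non-coding RNA annotated over part of the cluster, read 28.4 to 34.1 CPM in WT and 23.6 to 46.4 CPM in cKO. B830012L14Rik, a transcript of the same imprinted region, read 0.310 to 0.865 CPM in WT and 17.4 to 25.8 CPM in 5 cKO libraries, but 0.788 CPM in the library labelled cKO 1. Without that library the median of the 29 fold changes was -0.046, and Homer3, Lrrtm3 and Shank3 read 0.0074, -0.013 and -0.047 on the log2 scale. Its effect on Camk2a, Camk2b, Homer2, Nlgn1, Gphn and Iqsec2 is given beside those genes.

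Levels per kilobase of transcript differed far more between genes than between genotypes. The kinase subunits led, with Camk2a at 926 ± 34.2 and Camk2b at 350.0 ± 16.5 CPM per kilobase in WT (SD, n = 6). Dlg4, which encodes PSD-95, followed at 143 ± 6.62, ahead of Shank1 at 87.8 ± 5.86, Dlgap1 at 77.5 ± 4.04 and Dlgap3 at 71.9 ± 5.14 CPM per kilobase. The spreads of Dlgap1 and Dlgap3 overlapped. Nlgn2, Nrxn2, Iqsec2, Dlg2, Dlg3 and Shank3 lay between 44.9 ± 3.15 and 50.7 ± 1.97 CPM per kilobase, and the spread of each overlapped that of its neighbours in this order, though that of Nlgn2 did not reach those of Dlg3 and Shank3. Lrrtm4 (7.41 ± 0.505), Nlgn1 (5.71 ± 0.557) and Lrrtm3 (4.94 ± 0.850) were the lowest. These values divide by the longest coding transcript, and the order moves when all exons are merged instead: Shank1 (82.0 ± 5.47) then stands above Dlg4 (68.0 ± 3.16), Dlgap1 reads 31.1 and Dlg2 23.3 CPM per kilobase. For Dlg4 the longest coding transcript has 6326 bases and the longest 3′ UTR 5463. The transcript with that UTR thus has little room for coding sequence. Matches in that UTR lie up to chr11:70036721, while the gene runs to 70047522. The level per kilobase, share, GC content and matches of Dlg4 may thus not describe the full PSD-95 mRNA.

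**Figure D3:**
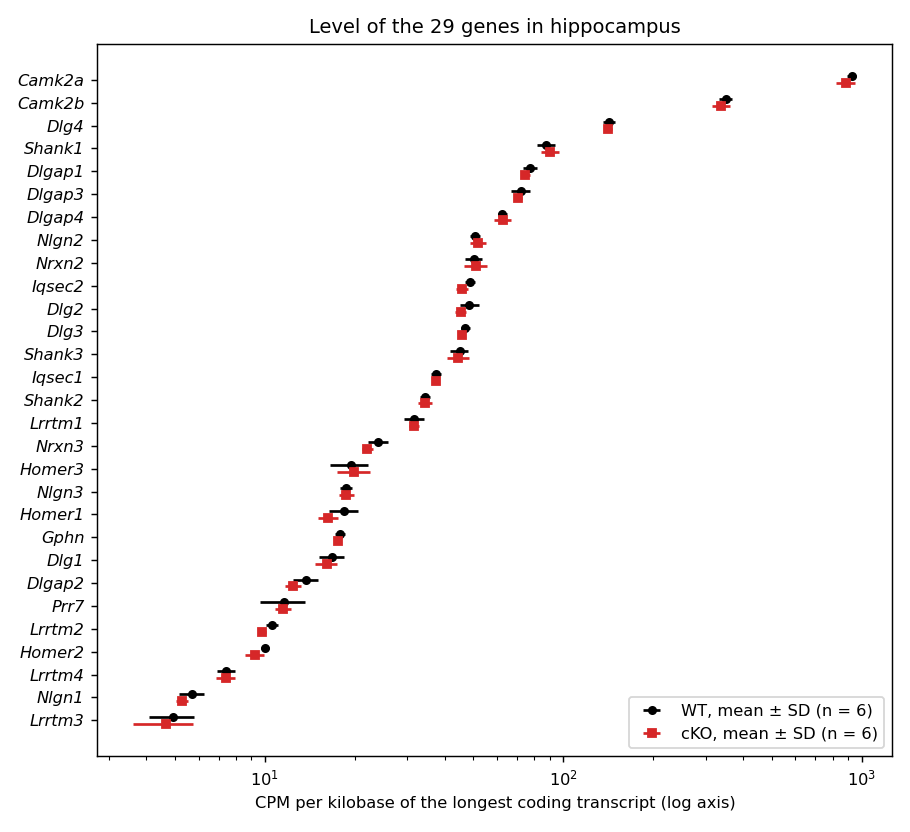
CPM per kilobase of the longest coding transcript (log axis), mean ± SD of 6 animals, for WT (black circles) and cKO (red squares). The genes span from 4.94 (Lrrtm3) to 926 (Camk2a) in WT, and the paired symbols of a gene lie close together.

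The 4 DLG genes encode the membrane-associated guanylate kinases that anchor AMPA and NMDA receptors. Dlg4 (PSD-95; chr11:70016942-70047522, GRCm38), the main excitatory scaffold, had 902 ± 41.9 CPM in WT against 897 ± 24.6 CPM in cKO (mean ± SD, n = 6 per genotype, as throughout). Its lowest, median and highest libraries read 850.4, 913 and 952 CPM in WT and 862, 905 and 926 CPM in cKO, so the cKO range lay inside the WT range. The log2 fold change was -0.0081 ± 0.037 (SE; edgeR adjusted p = 0.966), with an interval of -5.93% to 5.11%. Dlg2 (PSD-93; chr7:90476672-92449247), a paralog at the same synapses, had 379 ± 27.6 CPM in WT against 354 ± 13.9 CPM in cKO. Its libraries read 325, 389 and 402 CPM in WT and 332, 355 and 373 CPM in cKO, and all 6 cKO animals lay below the WT median but above the lowest WT animal. Dlg2 had a log2 fold change of -0.098 ± 0.048 (edgeR unadjusted p = 0.0598 and adjusted p = 0.545). WT 1, at 325 CPM, stood below the other 5 WT animals, and without it the value was -0.15 with adjusted p = 0.0778, the smallest of any of the 29 genes when single animals were left out; for Dlg2 these adjusted p ran up to 0.815.

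Dlg3 (SAP102), which carries NMDA receptors early in development, had 233 ± 8.36 CPM in WT against 227 ± 5.13 CPM in cKO and a log2 fold change of -0.034 ± 0.029 (edgeR adjusted p = 0.767). Dlg1 (SAP97), a trafficking scaffold for receptors, had 103 ± 10.02 CPM in WT against 98.9 ± 8.19 CPM in cKO and -0.063 ± 0.066 (edgeR adjusted p = 0.819). Ranges overlapped in both. Dlg1 read -0.11 without cKO 5 and -0.014 without WT 5, and Dlg3 read -0.052 without WT 1. Of the summed CPM per kilobase of the 4 genes, Dlg4 took 55.9% ± 1.02 in WT and 56.9% ± 0.442 in cKO. Dlg2 took 19.0% ± 0.834 in WT and 18.2% ± 0.378 in cKO. These shares divide by the longest coding transcript, and with merged exons Dlg2 took 16.5% in WT and 15.8% in cKO. Other shares moved more with that choice. In WT, Dlg4 took 48.3% with merged exons, and Dlg3 went from 18.4% to 28.3%, above Dlg2. Shares of the other families below also divide by the longest coding transcript.

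SAPAP proteins bridge the DLG layer to the Shank layer. Dlgap1 (chr17:69969073-70821413) had 556 ± 28.9 CPM in WT against 535 ± 18.9 CPM in cKO, with a log2 fold change of -0.055 ± 0.039 (edgeR adjusted p = 0.706), and all 6 cKO animals lay below the WT median. Without WT 1 the value of Dlgap1 was -0.087. Dlgap2 (chr8:14095865-14847680), the least abundant of the 4 in counts, had 62.0 ± 6.06 CPM in WT against 56.1 ± 3.54 CPM in cKO. The lowest, median and highest values of Dlgap2 were 52.9, 63.5 and 70.1 CPM in WT and 51.2, 57.1 and 59.7 CPM in cKO: all 6 cKO animals were below the WT median and 2 were below every WT animal. Dlgap2 had a log2 fold change of -0.14 ± 0.063 (edgeR unadjusted p = 0.0391 and adjusted p = 0.499), and without WT 5, the highest animal at 70.1 CPM, it was -0.11. WT 1, at 52.9 CPM, lay below 4 of the 6 cKO animals.

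Dlgap3 (chr4:127169204-127237022), whose sites are printed above, had 303 ± 21.6 CPM in WT against 297 ± 10.2 CPM in cKO. Its libraries read 276, 296 and 334 CPM in WT and 282, 296 and 310.0 CPM in cKO, with 3 of 6 cKO animals on either side of the WT median. The log2 fold change was -0.027 ± 0.045 (edgeR unadjusted p = 0.549 and adjusted p = 0.896), and the interval ran from -8.19% to 4.87%. Dlgap3 read -0.060 without WT 1 and -0.0033 without WT 2. Dlgap4 had 303 ± 10.02 CPM in WT against 304 ± 19.0 CPM in cKO and a log2 fold change of 0.0058 ± 0.040 (edgeR adjusted p = 0.977); the library labelled cKO 4, at 339 CPM, was above every WT animal.

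Shank proteins form the deeper layer, joining SAPAP to Homer and to actin. Shank1 (chr7:44310253-44360572) had 863 ± 57.5 CPM in WT against 888 ± 62.0 CPM in cKO, and its libraries read 818, 845 and 974 CPM in WT and 804, 892 and 970.5 CPM in cKO. WT 3 stood above the other 5 WT animals and cKO 4 was the highest of the cKO animals, and the ranges covered each other. Shank1 had a log2 fold change of 0.043 ± 0.055 (edgeR adjusted p = 0.861), 0.016 without cKO 4 and 0.074 without WT 3. Shank2 had 309 ± 11.9 CPM in WT against 309 ± 16.2 CPM in cKO (0.0022 ± 0.038, adjusted p = 0.99) and Shank3, the gene of Phelan-McDermid syndrome, had 331 ± 23.2 CPM in WT against 328 ± 26.8 CPM in cKO (-0.012 ± 0.058, adjusted p = 0.968). Of the summed CPM per kilobase of the 3 genes, Shank1 took 52.5% ± 1.17 in WT and 53.4% ± 1.41 in cKO. No Shank gene had an unadjusted p under 0.05.

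Homer proteins tie Shank to group I metabotropic glutamate receptors and to calcium stores, and a short form of Homer1 is induced by neuronal activity. Homer1 (chr13:93299635-93405129) had the lowest fold change of the 29. It had 105 ± 11.8 CPM in WT against 93.1 ± 7.37 CPM in cKO, and its lowest, median and highest libraries read 92.7, 104 and 123 CPM in WT and 84.9, 91.2 and 106 CPM in cKO. Of the 6 cKO animals, 5 lay below the WT median and 4 below every WT animal, while cKO 5, at 106 CPM, lay above the WT median. The log2 fold change of Homer1 was -0.18 ± 0.071 (edgeR unadjusted p = 0.0257 and adjusted p = 0.454), and it was -0.13 without WT 5, the highest animal at 123 CPM. The table holds 1 value per gene symbol, so long and short forms of Homer1 cannot be told apart. The longest 3′ UTR of Homer1 (4349 bases) has matches only up to chr13:93360462, while the gene runs to 93405129. The matches and GC content given for Homer1 may thus belong to a shorter form alone.

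Homer2 (chr7:81600481-81707527), the paralog with 9772 bases of 3′ UTR, had 110.2 ± 3.29 CPM in WT against 102 ± 7.09 CPM in cKO. Its libraries read 106, 111 and 114 CPM in WT and 91.4, 102 and 112 CPM in cKO: the WT animals lay close together, and 5 of 6 cKO animals lay below all of them. The exception was the library labelled cKO 1 at 112 CPM. Homer2 had a log2 fold change of -0.12 ± 0.043 (edgeR unadjusted p = 0.0166 and adjusted p = 0.421), and -0.15 without cKO 1 (adjusted p = 0.114, in a range of 0.114 to 0.747 over single animals left out). Homer3 (chr8:70282827-70294361) varied most of the 3, with 50.6 ± 7.34 CPM in WT against 52.1 ± 6.50 CPM in cKO and a log2 fold change of 0.042 ± 0.10 (edgeR adjusted p = 0.93). Homer3 shares 874 exon bases with Ddx49 on the opposite strand, and Homer2 shares 525 with Gm44570. Exons of 13 of the 29 genes overlap exons of the opposite strand, most in Lrrtm4 (1543 bases, with Gm4409), Nlgn1 (1229, with A830092H15Rik) and Nrxn2 (889). The strand setting of the counting is not given, so reads there cannot be assigned to 1 gene.

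Because Homer1 includes a form induced by activity, its level was set against 10 immediate early genes across the 12 libraries. Pearson's r ran from -0.0953 (Dusp1) to 0.472 (Fosb). For Fosb, a transcription factor of the early response, the two-sided permutation p was 0.12 for r and 0.318 for Spearman's rho of 0.315, and r was 0.582 without the 2 libraries farthest from the median. Within genotypes, over 6 animals each, r for Fosb was 0.27 in WT and 0.596 in cKO. For Dusp1, a phosphatase of the early response, the permutation p was 0.78 for r and 0.429 for rho of -0.252, and r was -0.535 without the 2 farthest libraries, -0.52 in WT and 0.85 in cKO. Within cKO all 10 values of r were above 0, from 0.16 to 0.85, and within WT 8 of 10 were below 0. The pooled values thus join genotypes whose r differed in sign for 8 genes, and that difference was not tested. Adjusted over the 10 relations by the Benjamini-Hochberg method, no permutation p for r was under 0.713.

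**Figure D4:**
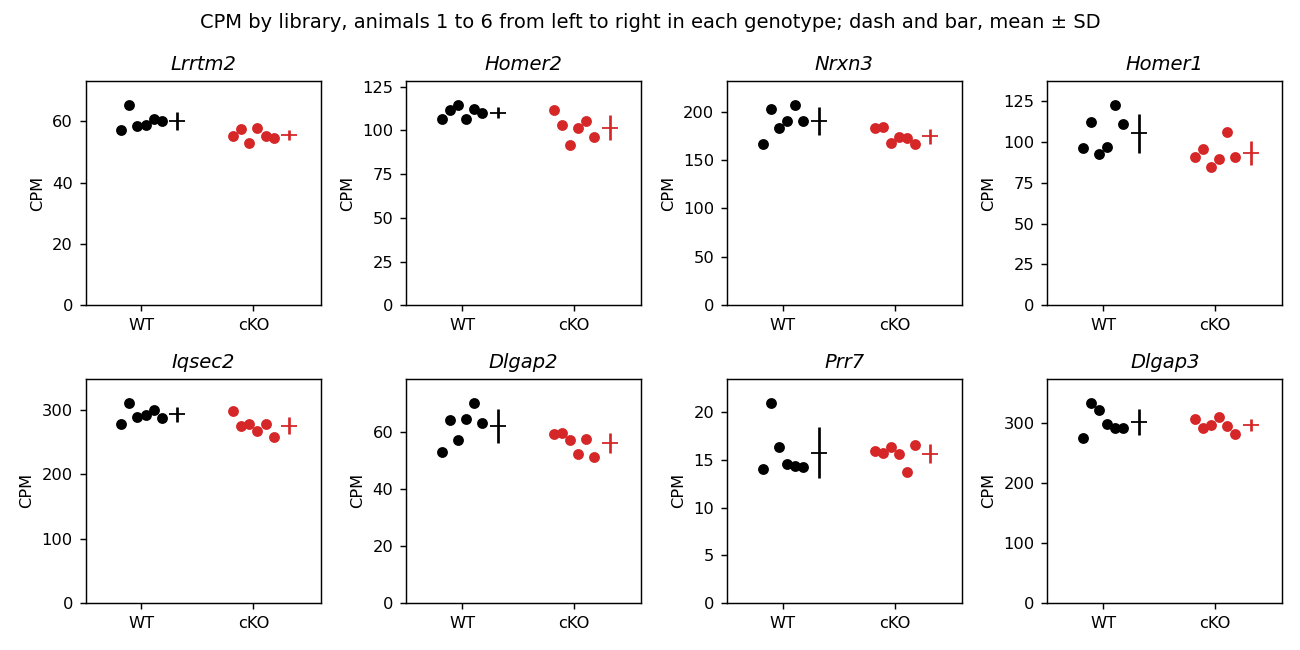
CPM of 8 genes in each library, animals 1 to 6 from left to right in WT (black) and cKO (red), with mean ± SD beside the points. Lrrtm2, Homer2, Nrxn3, Homer1, Iqsec2 and Dlgap2 have the 6 smallest p of the 29 genes, Prr7 and Dlgap3 have been described as targets, and in all 8 panels the 2 genotypes overlap.

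CaMKII, the calcium-dependent kinase of synaptic plasticity, is built from alpha and beta subunits in forebrain. Camk2a had 4600.5 ± 169.9 CPM in WT against 4392 ± 325 CPM in cKO, and its libraries read 4355, 4621 and 4827 CPM in WT and 3972, 4409 and 4819.6 CPM in cKO, with 3 cKO animals below every WT animal and none above. Camk2a had a log2 fold change of -0.067 ± 0.055 (edgeR adjusted p = 0.757). Camk2b (chr11:5969644-6066362) had 1408 ± 66.2 CPM in WT against 1359 ± 94.8 CPM in cKO, with -0.051 ± 0.051 (edgeR adjusted p = 0.806), and also had 3 cKO animals below every WT animal. Without cKO 1 the values were -0.10 for Camk2a and -0.085 for Camk2b, and without cKO 4 Camk2b read -0.025. The alpha subunit took 72.6% ± 0.550 in WT and 72.3% ± 0.437 in cKO of the summed CPM per kilobase of both genes. The balance between the subunits thus moved by less than its spread between animals. With merged exons the alpha subunit took 80.0% in WT and 79.8% in cKO.

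Neuroligins are the postsynaptic partners of neurexins: Nlgn1 is found mainly at excitatory synapses, Nlgn2 at inhibitory ones and Nlgn3 at both. Nlgn1 (chr3:25426215-26332460) had 67.4 ± 6.57 CPM in WT against 62.2 ± 2.82 CPM in cKO. All 6 cKO animals (58.6 to 65.6 CPM) lay below the WT median of 67.7 CPM, and none lay below WT 1 at 56.0 CPM. For Nlgn1 the log2 fold change was -0.12 ± 0.059 (edgeR unadjusted p = 0.0715 and adjusted p = 0.569), and -0.17 without WT 1. Without cKO 1 it was -0.14, with an unadjusted p under 0.05 (adjusted p = 0.407, in a range of 0.108 to 0.814 over single animals left out). Nlgn2 (chr11:69823122-69837784) had 282 ± 10.9 CPM in WT against 288 ± 18.1 CPM in cKO (0.032 ± 0.042, adjusted p = 0.864) and Nlgn3 had 159.6 ± 7.39 CPM in WT against 160.3 ± 8.98 CPM in cKO (0.0060 ± 0.041, adjusted p = 0.976). Nlgn3 shares 3823 exon bases with Gm21986 on the same strand, so its counts may be split between both symbols. Of the summed CPM per kilobase of the 3 neuroligins, Nlgn1 took 7.59% ± 0.516 in WT and 6.96% ± 0.364 in cKO.

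Neurexins are presynaptic adhesion receptors, and Nrxn2 and Nrxn3 are followed here. Nrxn3 (chr12:88722876-90334935) had 190.0 ± 14.5 CPM in WT against 174 ± 7.42 CPM in cKO, and its lowest, median and highest libraries read 167, 190.3 and 207 CPM in WT and 166, 173 and 184 CPM in cKO. All 6 cKO animals lay below the WT median, but 1 alone lay below WT 1, which read 167 CPM. On the log2 scale the fold change of Nrxn3 was -0.12 ± 0.048 (edgeR unadjusted p = 0.0233 and adjusted p = 0.451). Nrxn2 (chr19:6418731-6544169) had 334 ± 22.1 CPM in WT against 340.0 ± 30.2 CPM in cKO with 0.026 ± 0.059 (edgeR adjusted p = 0.926), and cKO 4, at 396 CPM, was above every WT animal. Of the summed CPM per kilobase of both, Nrxn3 took 32.4% ± 1.303 in WT and 30.2% ± 2.08 in cKO. The ranges of that share overlapped (30.1% to 34.1% and 27.0% to 33.2%). With merged exons Nrxn3 took 38.4% in WT and 36.1% in cKO.

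LRRTM proteins are leucine-rich repeat receptors that bind neurexins or heparan sulphate proteoglycans and recruit AMPA receptors. Lrrtm2 had the smallest p of the 29 genes. It had 60.1 ± 2.84 CPM in WT against 55.5 ± 1.73 CPM in cKO, and its libraries read 57.2, 59.4 and 65.3 CPM in WT and 53.0, 55.3 and 57.6 CPM in cKO: all 6 cKO animals lay below the WT median and 4 below every WT animal, while the other 2 lay just above the lowest WT animal. The log2 fold change of Lrrtm2 was -0.11 ± 0.035 (edgeR unadjusted p = 0.00555 and adjusted p = 0.353), with an interval of -12.3% to -2.72%, and it ran from -0.13 to -0.096 when each animal was left out in turn. Lrrtm2 lies inside Ctnna1 on the opposite strand and shares 95 exon bases with it.

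The other LRRTM genes had values near 0 or a wide spread. Lrrtm1 had 93.6 ± 7.24 CPM in WT against 93.5 ± 3.88 CPM in cKO (-0.00082 ± 0.049, edgeR adjusted p = 0.997) and Lrrtm4 had 32.8 ± 2.24 CPM in WT against 32.8 ± 2.37 CPM in cKO (-0.00051 ± 0.055, adjusted p = 0.999). Lrrtm3, with the widest spread of the 29, had 19.2 ± 3.31 CPM in WT against 18.2 ± 4.09 CPM in cKO and a log2 fold change of -0.079 ± 0.15 (adjusted p = 0.911). Its interval ran from -23.8% to 17.5%, and the value from -0.18 (without cKO 5) to 0.0033 (without WT 5). Of the summed CPM per kilobase of the 4 genes, Lrrtm1 took 57.9% ± 2.22 in WT and 59.1% ± 2.07 in cKO. As annotated, Lrrtm1 and Lrrtm3 lie inside Ctnna2 and Ctnna3.

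Gphn (chr12:78226379-78684772), the scaffold of glycine and GABA-A receptors and the one gene of inhibitory scaffolding among the 29, had 63.9 ± 2.34 CPM in WT against 62.7 ± 1.57 CPM in cKO. Its log2 fold change was -0.027 ± 0.030 (edgeR adjusted p = 0.835), with an interval of -6.12% to 2.65%, among the tightest of the genes, and without cKO 1 the value was -0.047. Its 3′ UTR held 1 seed match, the fewest of the 29.

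Prr7 (chr13:55464267-55473154), a proline-rich transmembrane protein of the postsynaptic density, had 15.8 ± 2.69 CPM in WT against 15.7 ± 1.006 CPM in cKO. The lowest, median and highest Prr7 libraries read 14.02, 14.5 and 21.0 CPM in WT and 13.7, 15.8 and 16.5 CPM in cKO; WT 2, at 21.0 CPM, stood above all others, and 5 of 6 cKO animals were above the WT median. Prr7 had a log2 fold change of -0.0091 ± 0.093 (edgeR unadjusted p = 0.924 and adjusted p = 0.985) and an interval of -13.6% to 14.2%. Without WT 2 the value was 0.083. The density of seed matches in Prr7 was the highest of the 29 genes. Its difference between genotypes was within the spread of the animals, and the part of the matches in it was not tested.

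Iqsec1 and Iqsec2 encode exchange factors for the GTPase ARF6 that sit in the postsynaptic density. Iqsec2 (chrX:152144268-152225236), a gene of X-linked intellectual disability, had 293 ± 11.5 CPM in WT against 276 ± 13.6 CPM in cKO. Its libraries read 278, 291 and 311 CPM in WT and 257, 276 and 298 CPM in cKO, with 4 cKO animals below every WT animal and the library labelled cKO 1 highest among the cKO at 298 CPM. For Iqsec2 the log2 fold change was -0.089 ± 0.037 (edgeR unadjusted p = 0.0322 and adjusted p = 0.483), and -0.12 without cKO 1. Iqsec1 (chr6:90656088-90988685) had 301 ± 12.03 CPM in WT against 300.2 ± 6.95 CPM in cKO with -0.0020 ± 0.030 (edgeR adjusted p = 0.989), and 5 of 6 cKO animals were above its WT median.

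The 29 genes also shared deviations from animal to animal within a genotype. Each gene was centred on its mean over the 12 libraries on the log2 scale. The median deviation over the 29 genes was lowest in WT 1 (-0.095) and cKO 6 (-0.079) and highest in WT 2 (0.096) and WT 3 (0.066). In WT 2, 25 of the 29 genes were above their mean and 11 had their highest library; in WT 1, 3 were above their mean and 7 had their lowest library. In cKO 6, 2 were above their mean and 10 had their lowest library. The spread of the whole set between WT animals was thus larger than the median difference between genotypes.

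Levels of choroid plexus RNA, from tissue that lies beside the hippocampus, were high in the libraries with the lowest deviations and low in those with the highest, but not in step over all libraries. Ttr, the transthyretin gene of choroid plexus, read 7657 CPM in WT 1 and 4994 CPM in cKO 6, against 49.8 CPM in WT 2 and 498 CPM in WT 3. It read 28.3 CPM in cKO 4, where the median deviation was 0.0053, 5078 CPM in cKO 3, where it was -0.013, and 4430 CPM in WT 6, where it was 0.0018. The 10 choroid plexus markers summed to between 86.8 and 8270 CPM in WT and between 56.8 and 5526 CPM in cKO. All 10 had a log2 fold change above 0 (median 0.31, smallest edgeR adjusted p = 0.907). The least of this RNA was in WT 2, WT 3 and cKO 4. When these were left out, 16 of the 29 values were below 0 and their median was -0.0035. Whether this RNA had a part in the values of the 29 genes was not tested.

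Marker genes of other cell types had the following fold changes, beside 46.6% of all genes tested below 0. Their part in the values of the 29 genes was not tested either. Of 8 markers of dentate granule neurons, 8 were below 0 (median -0.18, smallest edgeR adjusted p = 0.496), with sums of 692 to 815 CPM in WT and 526 to 820 CPM in cKO. All 8 oligodendrocyte markers were below 0 (median -0.092, smallest edgeR adjusted p = 0.63) and summed to 3388 to 5114 CPM in WT and 2761 to 4564 CPM in cKO. Of 9 smooth muscle and pericyte markers, 8 were above 0 (median 0.59, smallest edgeR adjusted p = 0.115). At an unadjusted edgeR p under 0.05, 7 of them were higher, beside 3.2% of all genes tested. Their sums were 227 to 267 CPM in WT and 286 to 355 CPM in cKO. All 8 interneuron markers were above 0 (median 0.039, smallest edgeR adjusted p = 0.645), with sums of 643 to 754 CPM in WT and 636 to 834 CPM in cKO. Of 10 neuron markers, 7 were below 0 with a median of -0.016. Of 7 CA1 markers, 6 were below 0 (median -0.043), and of 7 CA3 and CA2 markers, 3 were (median 0.0013). Of 7 endothelial markers, 6 were above 0 (median 0.087). Below 0 were 3 of 8 astrocyte markers (median 0.0045), 5 of 8 microglia markers (median -0.015) and 3 of 4 oligodendrocyte precursor markers (median -0.029). As the label of the tissue implies, markers of hippocampal fields were present in every library: those of CA1 summed to 682 to 946 CPM and those of CA3 and CA2 to 374 to 451 CPM. No marker of these lists was at 0 in any library.

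The fold changes went with the base composition of the transcripts. Among the 8 genes whose longest coding transcript has under 45% GC (Dlg1, Dlg2, Homer1, Homer2, Nlgn1, Lrrtm2, Lrrtm3 and Lrrtm4), 8 values were below 0, with a median of -0.11. Among the 10 genes between 45% and 55%, 8 were below 0 (median -0.017), and among the 11 genes above 55%, 6 were (median -0.0091). The extremes were Homer1, at 36.9% GC and -0.18, and at the other end Prr7, at 69.0% GC and -0.0091. The GC content of Homer1 may be that of a shorter form, as given above. Across the 29 genes, Pearson's r between GC content and log2 fold change was 0.594 and Spearman's rho 0.54. These genes share the same 12 libraries and are not independent points.

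The same direction was present over the genes of the genome at large. Of 3738 protein-coding genes tested with under 45% GC, 62.8% were below 0 (median -0.027), against 41.3% of 7876 genes between 45% and 55% (median 0.015) and 26.7% of 3885 genes above 55% (median 0.037). Across 15499 genes, Pearson's r was 0.236 and Spearman's rho 0.31. Values were also set beside genomic span. Of the 8 members that span over 400 kb, 7 were below 0 (median -0.077), beside 78.5% of the 335 genes of that span (median -0.068). Of the 21 members that span up to 400 kb, 15 were below 0 (median -0.012), beside 42.1% of 15164 genes (median 0.014). When each animal was left out in turn, r over the 29 genes ran from 0.47 (without WT 5, with 6 of the 8 low-GC genes below 0) to 0.684 (without WT 2). It was 0.646 without WT 2, WT 3 and cKO 4. By library, the deviation of the high-GC members minus that of the low-GC members ran from -0.12 to 0.036 in WT and from -0.053 to 0.15 in cKO, so the genotypes overlapped. The part of base composition in the genotype difference was not tested.

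**Figure D5:**
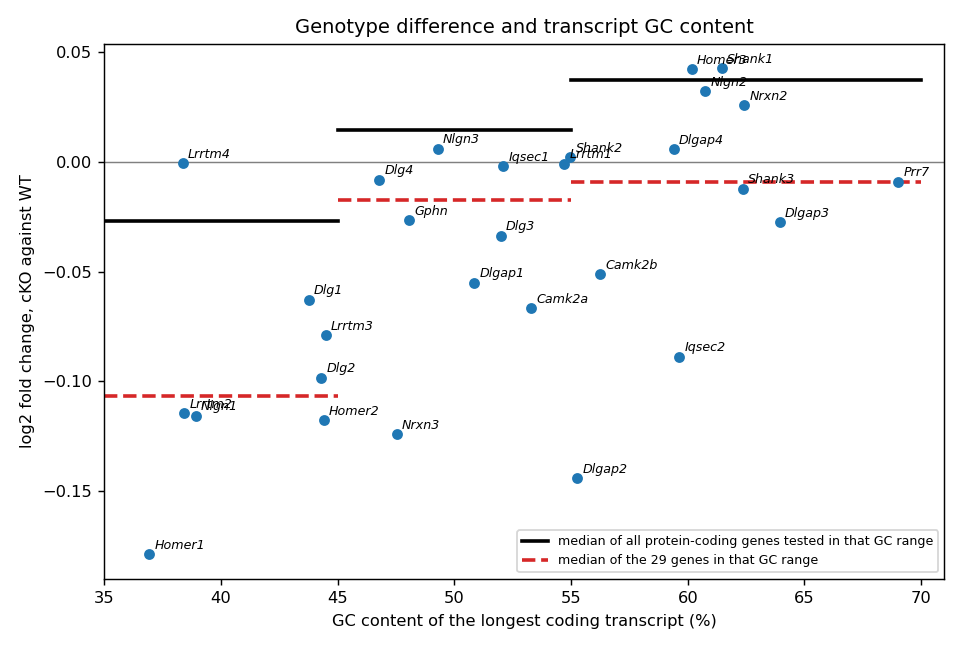
Log2 fold change of cKO against WT plotted against the GC content (%) of the longest coding transcript for the 29 genes (blue points), with the median of the 29 genes (red dashes) and of all protein-coding genes tested (black lines) in each GC range. The 8 points under 45% GC have a median of -0.11 and the 11 points above 55% a median of -0.0091, and the black medians go from -0.027 to 0.037.

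The number of seed matches was also set beside the fold changes. Homer2 held 57 matches, Nlgn1 28, Lrrtm4 23 and Iqsec1 22, with log2 fold changes of -0.12, -0.12, -0.00051 and -0.0020. With the number of matches taken on the log2 scale, its Pearson's r with log2 fold change across the 29 genes was -0.283. Over 15315 genes it was -0.148. Spearman's rho was -0.199 across the 29 genes and -0.189 over the 15315. Between matches per kilobase of UTR and log2 fold change, Pearson's r was 0.11, beside -0.0052. The part of the matches in the genotype difference was not tested. The members' UTRs were longer than those of tested genes (median 2743 against 1382 bases), with a median of 11 against 6 matches and 4.32 against 3.98 matches per kilobase. Of the 63 seeds, that of miR-495-3p matched the most member UTRs: 11 of 29 (37.9%), beside 24.2% of all UTRs. Other seeds had a lower share in the members, such as that of miR-679-5p with 6.9% beside 13.1%.

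Genes of the same compartments outside the 29 were also more often below than above 0. Of 84 other synaptic genes, edgeR, DESeq2 and limma-voom each called 0 at an adjusted p under 0.05. By edgeR, 57 were below 0 with a median of -0.035, and at an unadjusted p under 0.05, 10 were lower and 1 was higher, beside 6.34% lower and 3.2% higher of all genes tested. Of 30 other excitatory postsynaptic genes, 23 were below 0 (median -0.047). Those with the smallest p were Ppp1r9a (-0.20 ± 0.053, adjusted p = 0.343), which encodes the actin-binding protein neurabin, Kalrn (-0.15 ± 0.049, adjusted p = 0.365), a regulator of dendritic spine shape, and Cnksr2 (-0.20 ± 0.070, adjusted p = 0.407), a scaffold of the density. Ppp1r9a had 261 ± 21.3 CPM in WT against 228 ± 11.1 CPM in cKO.

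Of 9 other genes of inhibitory synapses, 6 were below 0 (median -0.060), among them Mdga2 (-0.12 ± 0.059, adjusted p = 0.54) and Slitrk3 (-0.091 ± 0.054, adjusted p = 0.633). Of 45 other synaptic adhesion genes, 28 were below 0 (median -0.029). The smallest p among these belonged to the receptor phosphatases Ptprd (-0.26 ± 0.092, adjusted p = 0.407) and Ptprf (0.13 ± 0.047, adjusted p = 0.407) and to Slitrk5 (-0.12 ± 0.044, adjusted p = 0.407). Ptprd had 176 ± 27.1 CPM in WT against 147 ± 15.1 CPM in cKO, and Ptprf, with 81.2 ± 5.25 CPM in WT against 88.9 ± 4.66 CPM in cKO, was the gene that was higher.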

How the data were processed

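PolyA RNA of bulk hippocampus from 12 male mice, 6 of each genotype, was extracted with Trizol and chloroform and prepared with the NEB Next Ultra RNA kit, per the labels' protocols. The authors deposited a table of estimated counts (the expected counts of the quantification) with 1 row per gene symbol and 1 column per animal, without scaling between libraries. They name Salmon 1.3.0 and the build GRCm38, per the submitters' processing notes. Which transcripts were used, the strand setting and how transcripts were joined into genes are not given in those sources, so a read in exons shared by opposite strands cannot be assigned. Rounding to whole numbers came before the count models.

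Genotypes were compared over the whole table in edgeR 4.0.16 (R 4.3.3) by its quasi-likelihood test, with TMM scaling and a model of genotype alone, after filterByExpr at its defaults (minimum count 10, minimum total 15). Benjamini-Hochberg adjustment ran over all genes tested, and the threshold was 0.05. Levels are TMM-scaled CPM. The steps were tested on simulated data. Libraries of the same genotype all differed by more than counting noise (the lowest chi-square per degree of freedom was 6.27). The p-values reflect the spread among animals, numbered in the labels by genotype.

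GENCODE (GRCm38) supplied coordinates, transcript lengths, GC content and the longest 3′ UTR of each gene, found for all 29 members. For Dlg4 and Homer1 the matches of this UTR lie well before the end of the gene. RefSeq (GRCm38.p6) supplied the mature microRNAs. Exact matches to the complement of seed bases 2 to 8 were counted on the strand of the mRNA, overlapping matches included. Relations of Homer1 with early genes were tested with 100000 permutations, two-sided.

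The members, gene lists and alternatives were chosen with earlier results of these data known. All 29 members were named, with the 3 smallest p of each list of other synaptic genes (1 of these genes is not reported here), Ttr as the marker of its list, and Mirg and B830012L14Rik as a check of the labels. Dusp1 and Fosb, the ends of the range of relations with Homer1, were picked once those values were known. The alternatives tried were scaling by RLE, by the upper quartile or by library totals, DESeq2 1.42.0, voom of limma 3.58.1, other low-count filters, each animal left out, WT 2, WT 3 and cKO 4 left out together, and the animal number as a replicate block.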

Additional observations from a re-analysis of the deposited data

Results flagged for a closer look

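In 4 of the 58 groups of 6 animals formed by the 29 genes and the 2 genotypes, 1 animal stood apart from the other 5 by Dixon's criterion at the 95% level, where chance gives about 1 in 20 groups, or 2.9 of 58. Dlg2 read 325 CPM in WT 1, below the other WT animals at 375 to 402 CPM. Shank1 read 974 CPM in WT 3, above the other WT animals at 818 to 870 CPM. Prr7 read 21.0 CPM in WT 2, above the other WT animals at 14.02 to 16.36 CPM. Prr7 also read 13.7 CPM in cKO 5, below the other cKO animals at 15.7 to 16.5 CPM.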

How the results depend on the processing

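No member and none of the 84 other synaptic genes passed the threshold in any of the 21 alternatives run, with smallest adjusted p among members of 0.0778 (edgeR without WT 1) and 0.144 (DESeq2). The number of all genes past it, 2 with edgeR, was 76 with DESeq2, 0 with limma-voom, 1 with no low-count filter, 0 with the replicate block, 0 without WT 2, WT 3 and cKO 4, and 0 to 6 when each animal was left out (6 without cKO 1 and 0 without any other); the cause was not tested. The median log2 fold change of the members stayed below 0 in these runs, from -0.054 (without WT 1) to -0.0035 (without WT 2, WT 3 and cKO 4). Deviations of same-numbered animals of the 2 genotypes had correlations of -0.27 to 0.25, which cannot settle whether the numbers pair the animals. With the replicate block, 4 members (Homer1, Homer2, Nrxn3 and Lrrtm2) had an unadjusted edgeR p under 0.05 in place of 6.

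Of 609 member values, 60 changed sign, in 15 genes, and 14 genes never did. With library totals alone, the log2 fold change was 0.0012 for Dlg4, 0.0088 for Lrrtm1, 0.0095 for Lrrtm4, 0.0014 for Prr7 and 0.0070 for Iqsec1. With limma-voom it was 0.0021 for Lrrtm1 and 0.014 for Prr7, with a mean of at least 1 CPM 0.0012 for Lrrtm1 and 0.0013 for Lrrtm4, with no filter -0.00062 for Shank2, and with the replicate block 0.0016 for Lrrtm1 and 0.0026 for Prr7. Without WT 2, WT 3 and cKO 4 it was 0.013 for Dlg4, 0.022 for Dlgap3, -0.0015 for Dlgap4, 0.046 for Shank3, 0.0059 for Camk2b, 0.038 for Lrrtm1, 0.073 for Lrrtm4 and 0.13 for Prr7. When each animal was left out, the values ran from -0.030 to 0.0015 for Dlg4, from -0.028 to 0.015 for Dlgap4, from -0.020 to 0.017 for Shank2, from -0.054 to 0.0078 for Shank3, from -0.011 to 0.095 for Homer3, from -0.0010 to 0.044 for Nlgn2, from -0.025 to 0.012 for Nlgn3, from -0.022 to 0.043 for Nrxn2, from -0.035 to 0.018 for Lrrtm1, from -0.18 to 0.0033 for Lrrtm3, from -0.037 to 0.031 for Lrrtm4, from -0.048 to 0.083 for Prr7 and from -0.020 to 0.019 for Iqsec1. The cause of these changes was not tested, and each of these genes had an adjusted p over 0.7 with all animals. The number of animals, 6 per genotype, and the mixture of cells in bulk tissue limit the precision.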
